A study of Danio rerio with 2 samples.

Results

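The genes of rod and cone phototransduction were examined in sorted cells of ppv3b:GFP zebrafish larvae at 5 dpf. The 9 names opn1sw1, opn1sw2, opn1lw1, GNAT1, GNAT2, saga, arr3a, PDE6C and CRX were looked up by symbol, without regard to case and with or without a final a or b, and 6 of them matched 8 of the 17668 genes of the data set. Of these 8 genes, 3 were rod genes, 3 were cone genes and 2 carried the name CRX. No gene carried the name opn1sw1, opn1lw1 or PDE6C, and these 3 were not analysed here.

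The data set holds 1 library of GFP(+) cells and 1 library of GFP(−) cells, both from larvae with the Ppv3b-GFP transgene. The parvalbumin reporter of this line marks mainly, but not only, hair cells (HCs), the mechanosensory cells of ear and lateral line. Whole larvae were dissociated with trypsin, so the GFP(−) library stands for the remaining cells of the body, the eyes among them, that survived dissociation and sorting. Each value is a read count per gene after quantile normalization between the libraries with a floor of 20, called normalized reads here. Since neither population has a second library, the spread between replicates is unknown, and p-values are not given.

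Phototransduction is the chain that turns light into an electrical signal in the rods and cones of the retina. An opsin that absorbs light activates the G protein transducin, transducin activates the phosphodiesterase PDE6, and the fall in cyclic GMP closes ion channels of the outer segment. Kinases and arrestins then silence the opsin. Rods and cones use separate, related genes for most of these steps, and the homeobox factor CRX drives many of them in both cell types. Like HCs, photoreceptors are ciliated sensory cells with ribbon synapses, but they detect light and not movement.

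All 8 photoreceptor genes had lower values in GFP(+) than in GFP(−) cells. The rod arrestin gene sagb had 2001.5 normalized reads in GFP(−) cells and a value in GFP(+) cells too low to be measured, and was at least 38.1-fold lower. Among the 5 genes above the range of GFP(+) values too low to be measured, the homeobox gene crx had the widest gap, at 31.2-fold. Its GFP(+) value of 57.5 lay just above that range, where values still followed the row order of the genes in short steps. The cone genes GNAT2, opn1sw2 and ARR3 also lay far below their GFP(−) values. Of the 8 genes, 8 were at least 3-fold lower in GFP(+) cells, against 14.6% of all genes, and none was higher. HC marker genes moved the other way. Of 26 such genes, 25 were above their GFP(−) values, as were 8237 of all 17668 genes. By 3-fold or more, 23 of the 26 were higher, against 16.9% of all genes. A gene with a GFP(−) value of 52.5 or less cannot be called lower by the rule used here. Among the HC markers this holds for tmie, CDH23 and ATOH1, at the floor of 20, and for TMC1, LHFPL5, lhfpl5b and both TMC2 genes. It also holds for gfi1aa, SLC17A8, MYO15A, POU4F3 and STRC, so none of these genes could have been counted as lower. The HC markers also include the parvalbumin genes pvalb8 and pvalb9, which may not be independent of a sort on a parvalbumin reporter. In bulk libraries, fewer cells of a type and less RNA per cell cannot be told apart.

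**Figure D1:**
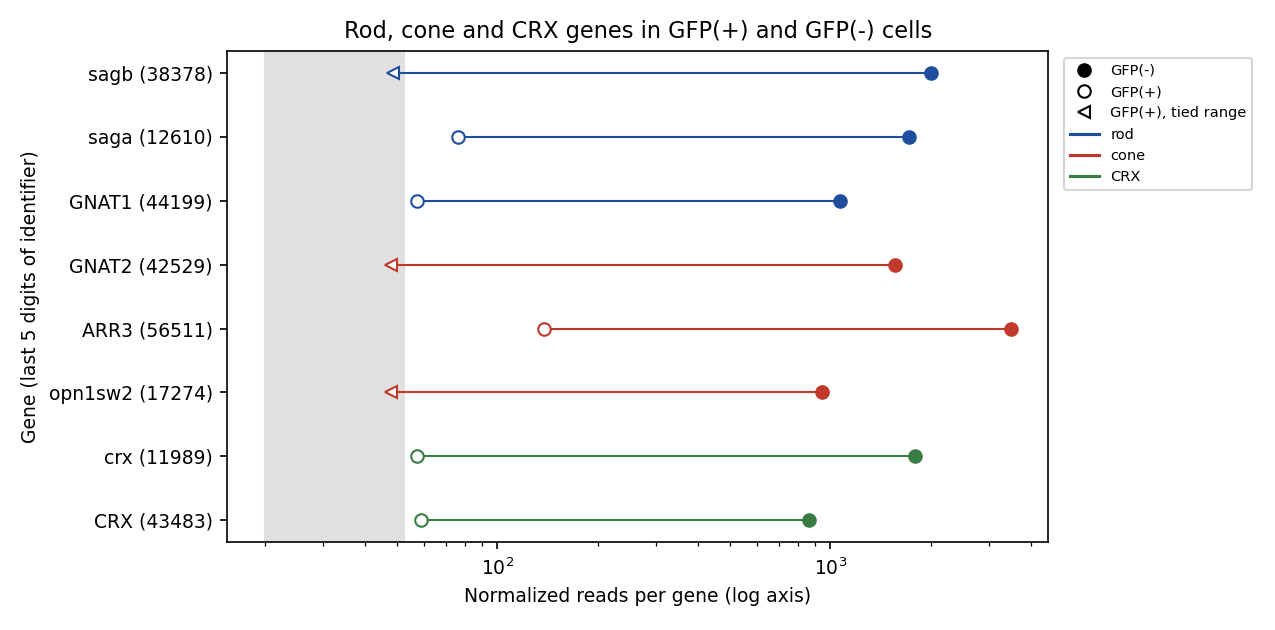
Normalized reads (log axis) of the 8 rod, cone and CRX genes in GFP(−) cells (filled circles) and GFP(+) cells (open symbols), 1 library each and thus without error bars. The grey band is the tied range of the GFP(+) library from 20 to 52.5, in which 3 genes lie (open triangles); the other 5 GFP(+) values run from 57.5 to 138, all to the left of their GFP(−) values.

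The lowest values of the GFP(+) library bear on every fold given here. A total of 3741 genes, 21.2% of the data set, had values between 20 and 52.5 there and formed 1 tied class. Within it, the GFP(+) value never fell as the row number of the gene in the table rose. The value thus gave the place of the gene in the table and not its expression in GFP(+) cells. For many genes of the class in the lists used below, though not all, it also rose with the GFP(−) value. The class reached above 48, the limit up to which values are treated as tied in the counts and medians here, and 412 of its genes lay between 48 and 52.5. Between 53 and 62 the same climb along the rows repeated itself in 6 shorter steps of 75 to 116 genes each. For a gene in the tied class, the fold is therefore given as a bound against 52.5. A gene of the class whose GFP(−) value is also in that range has no direction. Any other gene of the class can only be called lower, so the share of lower genes in a list depends on how many of its genes are tied. In turn, a gene above the class with a GFP(−) value of 52.5 or less can only be called higher.

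**Figure D2:**
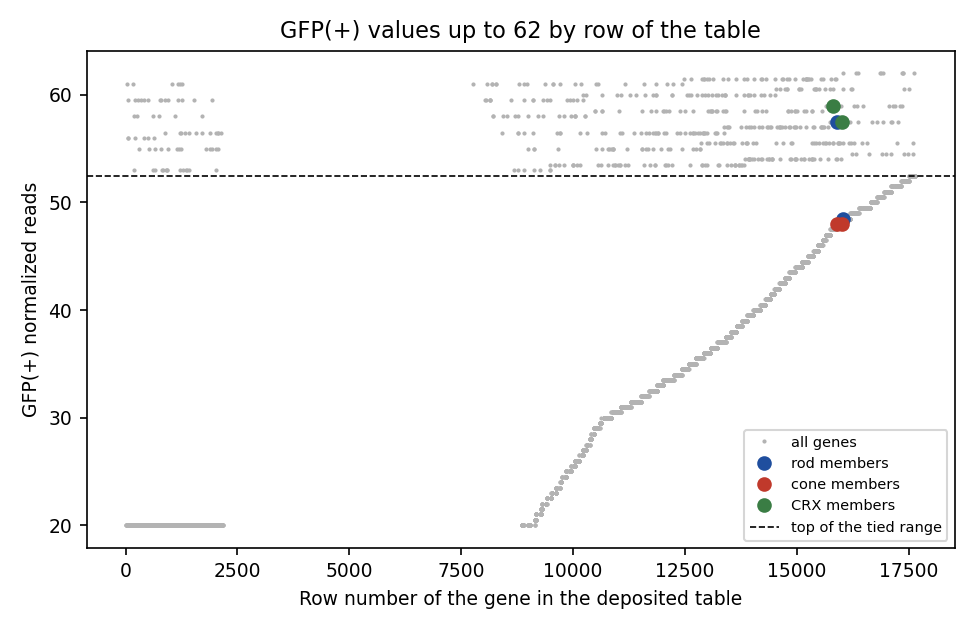
GFP(+) normalized reads up to 62 plotted against the row number of the gene in the deposited table, with each gene as a grey point and the photoreceptor genes as coloured points. Below the dashed line at 52.5 the points form 1 rising curve on which 1 rod gene and 2 cone genes lie, whereas GNAT1 and both CRX genes lie on the short steps above it.

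Of the rod genes, GNAT1 (ENSDARG00000044199), which encodes the alpha subunit of rod transducin, had 1070.0 normalized reads in GFP(−) and 57.5 in GFP(+) cells. This is an 18.6-fold difference, and the GFP(+) value lay on the third of the short steps above the tied class. The rod arrestins, which end the activity of the light receptor, are encoded by saga and sagb. saga (ENSDARG00000012610) had 1720.0 normalized reads in GFP(−) and 76.0 in GFP(+) cells and was 22.6-fold lower. sagb (ENSDARG00000038378) had 2001.5 and 48.5, the latter in the tied class, and was at least 38.1-fold lower. The pair of arrestin genes thus had like values in GFP(−) cells, but only saga had a GFP(+) value that can be read as a measurement.

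Of the cone genes, opn1sw2 (ENSDARG00000017274) encodes the opsin of the blue-sensitive cones. It had 941.5 normalized reads in GFP(−) cells and a tied value of 48 in GFP(+) cells, and was at least 17.9-fold lower. GNAT2 (ENSDARG00000042529), the alpha subunit of cone transducin, also had a tied value of 48 in GFP(+) cells. With 1558.5 in GFP(−) cells, it was at least 29.7-fold lower. The cone arrestin gene, named ARR3 in the table of identifiers (ENSDARG00000056511), was the 1 cone gene with a GFP(+) value above the tied class. It had 138.0 normalized reads there against 3485.5 in GFP(−) cells, a 25.3-fold difference. RefSeq lists arr3a and arr3b as separate genes, and the name ARR3 does not tell them apart.

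A pair of genes carried the name CRX, and RefSeq lists crx and its relative otx5. The gene written crx (ENSDARG00000011989) had 1795.5 normalized reads in GFP(−) and 57.5 in GFP(+) cells and was 31.2-fold lower. The gene written CRX (ENSDARG00000043483) had 862.0 and 59.0 and was 14.6-fold lower. Both GFP(+) values lay within the short steps just above the tied class, the first on the same step as GNAT1.

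Whether the rod and the cone genes differed from each other cannot be read from these data, because 1 of the 3 rod values and 2 of the 3 cone values rest on tied GFP(+) values. With GFP(+) values of 48 or less set to 48, the median log2 ratio was −4.50 over the 3 rod genes, with a range from −5.37 to −4.22, and −4.66 over the 3 cone genes, with a range from −5.02 to −4.29. With those values set to 20 instead, the cone median was −5.56, and the rod median stayed at −4.50. Over all 8 genes the median was −4.58, against 0.12 over all genes of the data set, or −0.10 over all genes with the values as deposited. Without the 3 genes in the tied class, a comparison added once the values were known, the median of the other 5 was −4.50.

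The photoreceptor genes were well covered in GFP(−) cells, where all 8 had at least 862 normalized reads. All genes with a GFP(−) value of 800 or more, a limit chosen after seeing the values, had a median log2 ratio of −0.66, and 31.4% of them were at least 3-fold lower. At least 10-fold lower were 15.1% of these genes, whereas all 8 photoreceptor genes were, the least of them by 14.6-fold. The 10-fold limit was not part of the plan either. The 3-fold limit can be reached only from a GFP(−) value of 144, and 25.9% of the genes at or above that value passed it. Summed over the 8 genes, normalized reads made up 0.0706% of all those in GFP(−) cells and 0.0028% in GFP(+) cells. The GFP(+) share includes 3 tied values and is thus not a measurement. Over the 5 genes above the tied class, the shares were 0.0469% in GFP(−) and 0.0020% in GFP(+) cells.

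Over the 5 genes above the tied class, the GFP(+) value was between 3.2% of the GFP(−) value, for crx, and 6.84%, for CRX. The share was 3.96% for ARR3, which had the highest value of the 8 genes in both libraries, 4.42% for saga and 5.37% for GNAT1. The GFP(+) values of GNAT1, crx and CRX, from 57.5 to 59.0, lay on the short steps just above the tied class. They were nearly equal, so that the shares of these genes differed mainly through the GFP(−) values. Where these reads came from was not tested.

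**Figure D3:**
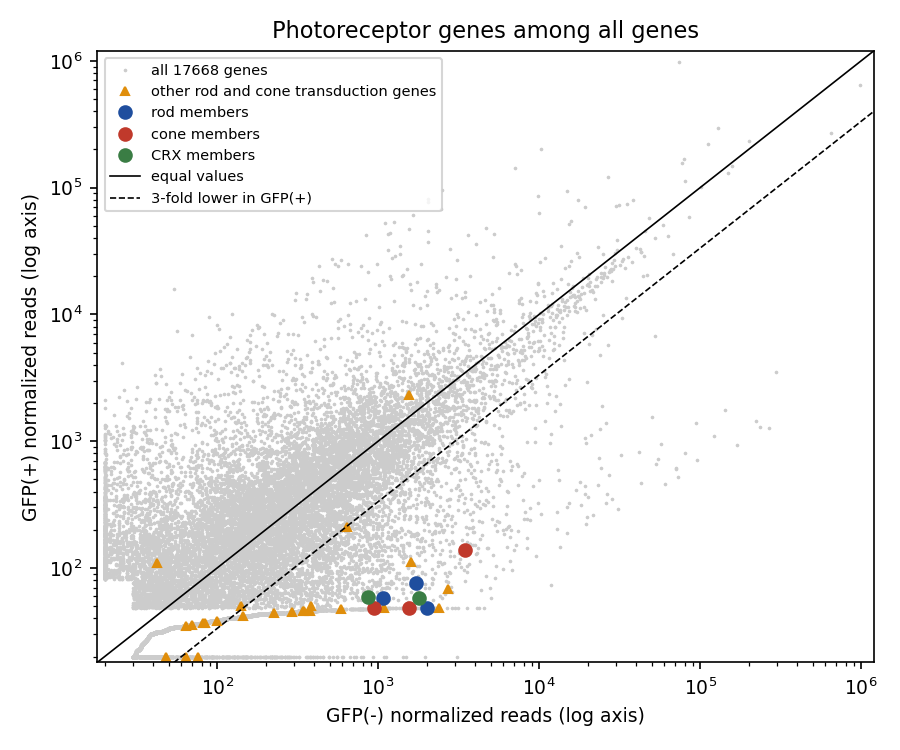
GFP(+) against GFP(−) normalized reads (log axes) for all 17668 genes (grey), with the 3 rod genes in blue, the 3 cone genes in red, the 2 CRX genes in green and 25 other rod and cone transduction genes as orange triangles. The solid line marks equal values and the dashed line a 3-fold lower GFP(+) value; all 8 photoreceptor genes lie below the dashed line.

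The other genes of the same chain were taken from lists of rod and cone transduction genes. Apart from the 8 genes above, 25 genes matched, of which 22 were lower and 2 higher in GFP(+) cells, and 1 had no direction. Of all genes, 45.1% were lower, counted by the same rule. At least 3-fold lower were 14 of the 25, against 14.6% of all genes, and at least 3-fold higher none, with a median log2 ratio of −1.61. In 20 of the 25 the GFP(+) value was in the tied class, against 21.2% of all genes, so that most of these differences are bounds. None of these 20 could be called higher, so the count of 22 lower largely follows from the tied values. Of the 6 genes with a GFP(−) value of at least 800, 5 were at least 10-fold lower, against 15.1% of all genes with such a value. Neither limit was planned.

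The other cone opsins had higher GFP(−) values than opn1sw2. opn1lw2 (ENSDARG00000044861), an opsin of the red-sensitive cones, had 2714.0 normalized reads in GFP(−) and 68.0 in GFP(+) cells and was 39.9-fold lower. opn1mw2 (ENSDARG00000044280), an opsin of the green-sensitive cones, had 2393.5 and a tied value of 48.5, and was at least 45.6-fold lower. A gene named OPN1SW without a number (ENSDARG00000045677) was not among the 8 because its symbol differs from opn1sw1, and was looked up after the values had been seen. It had 1706.0 normalized reads in GFP(−) cells and a tied 48.5 in GFP(+) cells, and was at least 32.5-fold lower. How reads that fit several related opsin genes were counted is not given in the sources used here, so that the values of single opsins are uncertain.

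Downstream of the opsins, gnb3b (ENSDARG00000002696), a beta subunit of cone transducin, was at least 20.8-fold lower in GFP(+) cells, from 1089.5 normalized reads. The other GNB3 gene (ENSDARG00000004358) was 3.06-fold lower, with 641.0 and 209.5. The pair of PDE6B genes, a catalytic subunit of the rod phosphodiesterase, were at least 7.19-fold (ENSDARG00000011671) and 6.53-fold lower (ENSDARG00000000380), with GFP(−) values of 377.5 and 343.0. PDE6H (ENSDARG00000056791), which encodes the inhibitory subunit of the cone enzyme, was lower by at least 2.77-fold, from 145.5 normalized reads, and was counted as 3-fold lower against 48.

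The channel genes had low values in both libraries. The CNGA1, cngb1a, cngb1b, CNGA3 and CNGB3 genes, subunits of the cyclic GMP-gated channels, had between 48 and 100.5 normalized reads in GFP(−) cells and tied values in GFP(+) cells. At this level a 3-fold difference was not detectable.

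The shut-off of the response was represented by the opsin kinases and by recoverin, a calcium sensor that holds the kinase back. GRK1 (ENSDARG00000058803), the rod kinase, was at least 6.56-fold lower, from 344.5 normalized reads in GFP(−) cells. Of the genes named GRK7, the cone kinase, 1 was lower and 1 higher. ENSDARG00000020602 was at least 11.2-fold lower, from 588.5, whereas ENSDARG00000055534 was higher in GFP(+) cells, with 110.0 against 42.5. Recoverin genes numbered 4, and the pair with the highest values had 2111.5 normalized reads in GFP(−) cells with a tied GFP(+) value (ENSDARG00000019902, at least 40.2-fold lower) and 1606.5 with a GFP(+) value of 112.0 (ENSDARG00000009637, 14.3-fold lower).

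The second exception was gnb1a (ENSDARG00000090454), a G protein beta subunit that rods share with many other cells. It had 2303.0 normalized reads in GFP(+) and 1565.5 in GFP(−) cells, a 1.47-fold higher value.

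Of the guanylate cyclases and the proteins that set the speed of recovery, 13 genes matched, and all 13 had tied GFP(+) values. gucy2d (ENSDARG00000026820), with 280.5 normalized reads in GFP(−) cells, was at least 5.34-fold lower, and 5 of the 13 had no direction. Of 25 genes for the structure of the outer segment and its surroundings, 22 were lower, against 45.1% of all genes, and 2 had no direction. At least 3-fold lower were 14, against 14.6% of all genes. Tied GFP(+) values were found in 19 of the 25, against 21.2% of all genes, and these 19 could not be called higher. rs1a (ENSDARG00000027236), a retinoschisin gene, had 1377.5 normalized reads in GFP(−) cells and was at least 26.2-fold lower.

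Of 14 genes of the visual cycle, which regenerates the light-sensitive retinoid, 9 were lower and 3 higher in GFP(+) cells, and 2 had no direction, against 45.1% of all genes lower. At least 3-fold lower were 5 and at least 3-fold higher 2, against 14.6% and 16.9% of all genes. In 7 of the 14 the GFP(+) value was in the tied class, against 21.2% of all genes, and these 7 could not be called higher. rbp3 (ENSDARG00000059163), which encodes the retinoid carrier between photoreceptors and pigment epithelium, was 13.9-fold lower, with 879.5 normalized reads in GFP(−) and 63.5 in GFP(+) cells. RDH10 (ENSDARG00000058730), a retinol dehydrogenase also used outside the eye, was 4.06-fold lower, with 1341.0 and 330.5.

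Of 22 genes for transcription factors of photoreceptors and their precursors, the CRX pair included, 17 were lower and 3 higher in GFP(+) cells, and 2 had no direction. Of all genes, 45.1% were lower. At least 3-fold lower were 10, against 14.6% of all genes, and none was at least 3-fold higher. Without the CRX pair, 15 of 20 were lower and 8 at least 3-fold lower, with a median log2 ratio of −0.44. The GFP(+) value was in the tied class in 7 of the 20, against 21.2% of all genes, and these 7 could not be called higher. NEUROD1 (ENSDARG00000019566), a proneural factor of cone and other neural lineages, was 22.5-fold lower, with 2355.0 normalized reads in GFP(−) and 104.5 in GFP(+) cells. six7 (ENSDARG00000070107), which zebrafish need for green cone opsins, was at least 18.1-fold lower, and NR2E3 (ENSDARG00000045904), a nuclear receptor of the rod fate, at least 13.1-fold. THRB (ENSDARG00000021163), the thyroid hormone receptor of the red cone fate, was at least 8.06-fold lower, from 423.0 normalized reads.

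OTX2 (ENSDARG00000011235) and rx1 (ENSDARG00000071684), homeobox factors of the early retina, were 7.64-fold and 6.97-fold lower. Some other homeobox factors of the same list were not lower, and rx3 (ENSDARG00000052893) had 75.5 normalized reads in GFP(+) and 65.0 in GFP(−) cells. Of the SIX6 genes, ENSDARG00000025187 had 78.5 and 56.5. The other, ENSDARG00000031316, was at least 4.66-fold lower, from 244.5 in GFP(−) cells. The gene otx2a had no direction. The TBX2 genes differed, with 507.0 normalized reads in GFP(+) and 519.0 in GFP(−) cells for ENSDARG00000018025 and 164.5 and 516.0 for ENSDARG00000006120, a 3.14-fold lower value. The gene rorab (ENSDARG00000001910) had 1020.5 and 1344.5, and PRDM1 (ENSDARG00000002445) had 1037.0 and 1400.5.

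Genes of other retinal cells were counted beside the 45.1% of all genes that were lower and the 21.2% with tied GFP(+) values. Genes with tied values could not be called higher. Of 8 genes of Müller glia, the support cells of the retina, all were lower, with a median log2 ratio of −3.44. Tied GFP(+) values were found in 3 of the 8. GFAP (ENSDARG00000025301), which also marks glia of the brain, was at least 33-fold lower, from 1734.0 normalized reads. Of 10 bipolar cell genes, 8 were lower and 2 higher, and 6 of the 10 had tied GFP(+) values. The count of 8 thus largely follows from the tied values. VSX1 (ENSDARG00000056292), a bipolar cell homeobox factor, was 12.0-fold lower, with 852.0 and 71.0. Of 21 genes of amacrine, horizontal and ganglion cells, 17 were lower, and 5 of the 21 had tied GFP(+) values. ELAVL3 (ENSDARG00000014420), common to neurons in general, was 15.5-fold lower. Many of these genes are expressed in the brain as well, so that they do not stand for the retina alone.

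Of 11 genes of pigment epithelium and pigment cells, 8 were lower and 3 at least 3-fold lower, against 45.1% and 14.6% of all genes. GFP(+) values in the tied class were found for 6 of the 11, against 21.2% of all genes, and these 6 could not be called higher. The most abundant gene of that list, BHMT (ENSDARG00000013430), was 50.2-fold lower from 27021 normalized reads, and it is also a liver gene.

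**Figure D4:**
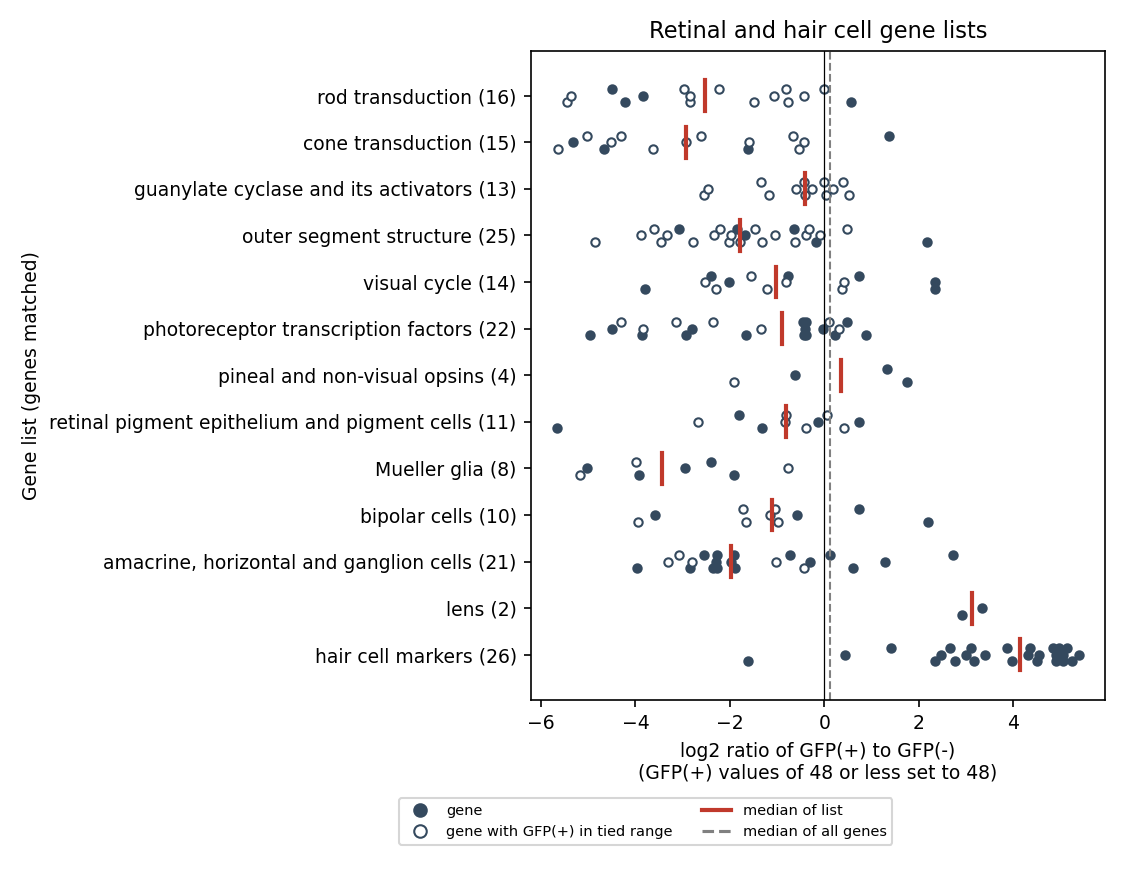
log2 ratio of GFP(+) to GFP(−) for each gene of 13 lists (points), with the list medians as red bars and the median of all genes, 0.12, as a dashed line. Open points are genes whose GFP(+) value is in the tied class, and they have no direction where the GFP(−) value is 52.5 or less as well. The medians were −2.53 for rod and −2.92 for cone transduction genes, against 4.14 for HC markers.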

How the data were processed

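RNA-seq values of ppv3b:GFP larvae at 5 dpf were compared between GFP(+) and GFP(−) cells, with 1 library per population. The authors used TopHat for alignment to Zv9 and HTSeq for counting over Ensembl genes. The versions are not given in the sources used here. The deposited values are a signal, namely counts after quantile normalization with a floor of 20, and a minimum of 40 reads is named in the title of the table. The methods place the floor after the normalization, whereas the title of the table names the floor first. Which order was used was not tested. The values are the same set in both libraries and sum to 19035170.5, so the depth of each is unknown.

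A table of identifiers named 14593 of 17668 genes, and 3758 genes had a deposited symbol. List symbols were matched with or without a final a or b. log2 ratios were computed without a pseudocount, with GFP(+) values of 48 or less set to 48, and a gene was called at a 3-fold difference. Steps of tied values were found from the row order. The functions were tested on simulated data. No gene coordinates or sequences were used here. A promoter motif search in the plan was not run. Some items are not reported here. The genes and lists were chosen with earlier results of these data known.

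By plan, named genes were all 8 matched genes and rows of the rod, cone and transcription factor lists. In every other list they were the genes with the highest and the lowest log2 ratio and the highest GFP(−) value. Not each of them is reported. Outside this rule, OPN1SW, rdh5, the other RPE65 genes, pvalb9 and HC markers with low GFP(−) values were also named. Alternatives were pseudocounts of 20 and 100, a minimum mean of 100, other treatments of tied values, centring, summed genes and other name sources. Python 3.11.15, numpy 2.4.6, pandas 2.3.3 and matplotlib 3.10.9 were used.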

Additional observations from a re-analysis of the deposited data

How the results depend on the processing

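No paired analysis was possible because there is 1 library per population and no test. Nor is there an interval for any ratio, since depth is unknown. All 8 photoreceptor genes stayed lower in GFP(+) cells under each alternative that kept them. With a pseudocount of 100, the median log2 ratio was −3.37 for rod genes, −3.49 for cone genes and −3.43 for all 8, and with GFP(+) values of 48 or less set to 20 the cone median was −5.56. These follow from how the settings treat low GFP(+) values. The number of them at least 3-fold lower was 8. It was 6 of 6 with GFP(+) values above 48 only and also 6 of 6 with genes of 1 name summed. With GFP(+) values above 52.5 only, added after seeing the data, it was 5 of 5. Deposited symbols alone named none of the 8, so this alternative gave no value. Over all genes, 2585 were at least 3-fold lower, against 1398 with a pseudocount of 100, 1697 with GFP(+) above 48 and 1615 with it above 52.5. The median of the pineal and non-visual opsin list turned from 0.36 to −1.91 with a minimum mean of 100, and that of the bipolar cell list from −1.10 to 0.075 with GFP(+) above 48 or above 52.5, as fewer genes were left. The medians of the wider lists of rod and cone transduction genes, with the rod and cone genes of the 8 included, ran from −4.22 to −1.36 and from −4.40 to −1.68 over the alternatives. Centring lowered each log2 ratio by 0.12.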

Other observations

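Some genes of the eye lists were higher in GFP(+) cells. In the visual cycle list, rdh12l (ENSDARG00000045277) had 449.0 normalized reads in GFP(+) and 88.5 in GFP(−) cells, a 5.07-fold higher value, and rdh5 (ENSDARG00000008306) had 219.5 and 43.5, 5.05-fold higher. Both encode retinol dehydrogenases, of which rdh5 is known from the pigment epithelium. EYS (ENSDARG00000088460), an extracellular protein known from photoreceptors, had a GFP(−) value at the floor of 20 and a GFP(+) value of 90.0, a difference of at least 4.5-fold. From the floor, a lower GFP(+) value was not possible. Of the RPE65 genes, the retinoid isomerase of the pigment epithelium, ENSDARG00000054420 had 67.5 in GFP(+) and 40.5 in GFP(−) cells. The RPE65 gene with the highest GFP(−) value, ENSDARG00000007480, was at least 1.61-fold lower, from 84.5, and ENSDARG00000094752 had no direction.

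Of 28 lens symbols, 2 matched a gene each, and both were higher in GFP(+) cells. The crystallin genes cryba1l1 (ENSDARG00000032929, 200.5) and CRYBB3 (ENSDARG00000041301, 151.0) were at the floor of 20 in GFP(−) cells, so that they were at least 10-fold and 7.55-fold higher. A gene at the floor in GFP(−) cells cannot be lower in GFP(+) cells, so the direction of both was fixed beforehand. Of all genes, 16.9% were at least 3-fold higher. The opsin OPN3 (ENSDARG00000052775), which is found outside the eye as well, had 130.0 and 38.5 and was 3.38-fold higher, whereas the melanopsin gene OPN4 (ENSDARG00000007553) was at least 3.43-fold lower, from 180.0.

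In the lists of other retinal neurons, cabp5b (ENSDARG00000028485), a calcium-binding protein, was 4.6-fold higher in GFP(+) cells, with 505.5 against 110.0 normalized reads. POU4F1 (ENSDARG00000005559), a factor of ganglion cells and of sensory neurons, was 6.63-fold higher, with 835.5 against 126.0. In the HC marker list, SLC17A8 (ENSDARG00000057728), the vesicular glutamate transporter of HCs, was 41.6-fold higher, and cabp2a (ENSDARG00000052016) was the 1 gene with a lower value, 58.0 against 178.5. Whether HCs or other GFP(+) cells held these transcripts was not tested.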
